A study of Mus musculus with 44 samples.

Results

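The genes described here are 8 transcription factors of the naive pluripotency network of mouse embryonic stem (ES) cells: Nanog, Klf2, Klf4, Klf5, Esrrb, Tbx3, Nr0b1 and Nr5a2. They were taken as every probe set that the platform annotation gives to one of these symbols, which were 12 of the 12422 probe sets tested and 8 of the 8251 genes with a symbol of their own. The values are log2 intensities on 40 Affymetrix MG-U74Av2 arrays in 11 groups. All cells were of the CGR8 mouse ES line, clone cgr8.8. The study set out to find genes regulated by Hex (gene symbol Hhex), a homeodomain transcription factor that represses its targets. Wild-type cells had 4 arrays. Cells with Hex placed at the Rosa26 locus had 4 arrays in the unrecombined and 4 in the recombined state. Cells with HexERTVP2 at Rosa26, whose name reads as a Hex fusion with a receptor domain responsive to 4-hydroxytamoxifen (4-OHT) and a viral activation domain, were studied as clone 1 and clone 2. Clone 1 had 5 unrecombined arrays without and 3 with 4-OHT, and 4 recombined arrays without and 4 with 4-OHT. For clone 2 there were 3 arrays per state. The labels do not say what recombination removes, the dose or duration of 4-OHT, or the culture medium. Whether the Hex cells are more than a single clone is not stated either, so insertion and clone cannot be told apart in any comparison with wild type. A further 4 arrays had titles that contradict themselves and entered no comparison. Separate cultures are not stated for the arrays within a group, so all p-values measure the spread between arrays, which may be technical.

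In mouse ES cells the naive state is held by a group of transcription factors that sit around the core factors Oct4 (Pou5f1) and Sox2 and that bind many of the same enhancers. Leukaemia inhibitory factor acts through STAT3 mainly on Klf4, and Nanog, Klf2, Klf5, Esrrb and Tbx3 reinforce one another and the core. Nanog is a homeodomain protein. Klf2, Klf4 and Klf5 are zinc finger proteins that bind GC-rich boxes. Esrrb and Nr5a2 (LRH-1) are orphan nuclear receptors that bind related half-sites, and Nr0b1 (DAX1) is a nuclear receptor without a DNA-binding zinc finger domain that acts mostly as a co-repressor. Tbx3 is a T-box factor. Several of these factors, Nanog and Klf4 among them, are switched off in a fluctuating way in single ES cells, so a bulk level cannot tell fewer expressing cells from less RNA per cell.

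The promoters of the 4 genes whose levels differed most between groups are shown first, because the study looked for targets of Hex, a DNA-binding repressor, and so that a reader can see which letters known to be bound by these factors lie near their start sites. Each runs from 250 bases before to 50 bases after the start site on the gene's strand, 5′ to 3′, from RefSeq on GRCm38.p6. They lie at chr6:122707239-122707538 (plus strand, Nanog), chr8:72318812-72319111 (plus, Klf2), chr4:55532426-55532725 (minus, Klf4) and chrX:86191525-86191824 (plus, Nr0b1). Capitals mark matches, on either strand, to ATTAA (the core of the sequence Hex is known to bind), to the octamer letters TTTGCAT and the Sox letters ACAATG (the paired Oct4 and Sox2 motif), and to CCNCNCCC (a Klf box). The half-site AAGGTCA of Nr5a2 and Esrrb was searched too.
Nanog: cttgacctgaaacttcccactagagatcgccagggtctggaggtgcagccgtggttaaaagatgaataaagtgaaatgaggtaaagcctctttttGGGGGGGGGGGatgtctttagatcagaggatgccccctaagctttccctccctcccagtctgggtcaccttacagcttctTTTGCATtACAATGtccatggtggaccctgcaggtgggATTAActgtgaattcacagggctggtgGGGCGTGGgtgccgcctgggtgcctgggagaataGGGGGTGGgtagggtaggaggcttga
Klf2: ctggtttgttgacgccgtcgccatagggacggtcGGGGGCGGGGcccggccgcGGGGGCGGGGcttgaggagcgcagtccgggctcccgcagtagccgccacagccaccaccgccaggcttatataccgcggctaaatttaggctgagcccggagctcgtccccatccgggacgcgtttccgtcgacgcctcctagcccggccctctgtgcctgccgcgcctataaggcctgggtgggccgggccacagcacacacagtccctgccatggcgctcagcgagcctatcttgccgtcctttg
Klf4: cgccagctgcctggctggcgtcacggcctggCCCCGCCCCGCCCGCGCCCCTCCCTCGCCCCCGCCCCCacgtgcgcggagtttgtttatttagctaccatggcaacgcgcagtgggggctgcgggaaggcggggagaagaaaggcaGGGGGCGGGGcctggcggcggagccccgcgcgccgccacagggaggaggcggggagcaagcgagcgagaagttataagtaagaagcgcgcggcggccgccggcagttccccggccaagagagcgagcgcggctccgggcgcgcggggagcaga
Nr0b1: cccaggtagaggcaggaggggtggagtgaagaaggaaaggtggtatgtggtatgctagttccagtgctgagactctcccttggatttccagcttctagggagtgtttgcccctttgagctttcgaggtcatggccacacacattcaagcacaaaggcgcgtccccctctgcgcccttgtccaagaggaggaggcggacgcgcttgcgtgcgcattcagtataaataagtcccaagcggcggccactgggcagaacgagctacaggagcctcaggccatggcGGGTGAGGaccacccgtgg
The Nanog promoter shown held the octamer letters at position -75 and the Sox letters at -67, just downstream, and ATTAA at -37 (positions of the first base, counted from the start site). Counted from the other Nanog start site, not shown, the same letters lay at -151, -143 and -113. Of 32851 promoters of this length in the table, 4.63% held TTTGCAT, 12.6% ACAATG and 27.1% ATTAA. The Klf box is a loose motif that 49.5% of these promoters held; it matched 8 of the 9 promoters found for 6 of the 8 genes, with overlapping matches in the G-rich runs of Klf2, Klf4 and Nanog. The half-site AAGGTCA, held by 4.72% of promoters, matched 0 of the 9. A match is a run of letters and no evidence of binding, and its absence says only that these letters are not in this window.

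Array 2 of unrecombined Hex differed from all the others. It had a mean Pearson r with them of 0.869, against 0.978 to 0.99 for the rest, and its log2 values had an SD of 1.6 against 1.79 to 1.98. Tests are therefore given with and without it where it changes a call, a direction or a size. Leaving it out changes the group means only of unrecombined Hex, but it lowers the pooled spread in every comparison: the residual SD of Klf2 went from 0.14 to 0.08 and that of Nr0b1 from 0.28 to 0.18. The β-actin 3′/5′ log2 ratio, a gauge of RNA integrity and labelling, ran from 0.56 to 2.34 over the arrays, and its difference is given beside each comparison. The cells carried the markers of ES cells: 9 of 10 listed, Pou5f1, Sox2 and Zfp42 among them, lay above the array median on all 40 arrays. The tenth, Esrrb, lay below it on all 40. The probe set of Hhex itself had group means between 5.89 and 6.29 and read 6.25 ± 0.15 in recombined and 5.89 ± 0.64 in unrecombined Hex (SD, n = 4 each); whether its probes see the inserted Hex is not stated, so it checks no label.

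Nanog, Klf2, Klf4, Klf5, Nr0b1 and Nr5a2 lay above the array median on all 40 arrays. Esrrb and Tbx3 lay below it on all 40, so their small differences are close to the range where the array does not resolve RNA from background. Further probe sets existed for Nanog, Klf4, Nr0b1 and Nr5a2; those of Klf4, Nr0b1 and Nr5a2 were dim, below the array median everywhere, and the values below are those of the brighter set unless stated. Nr0b1 had the widest spread of group means, 1.29 on the log2 scale, followed by Klf4 (1.06), Nanog (0.97) and Klf2 (0.81). Without array 2 the range was 0.86 for Nanog and 0.74 for Klf5, which had 0.38 with it.

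**Figure D1:**
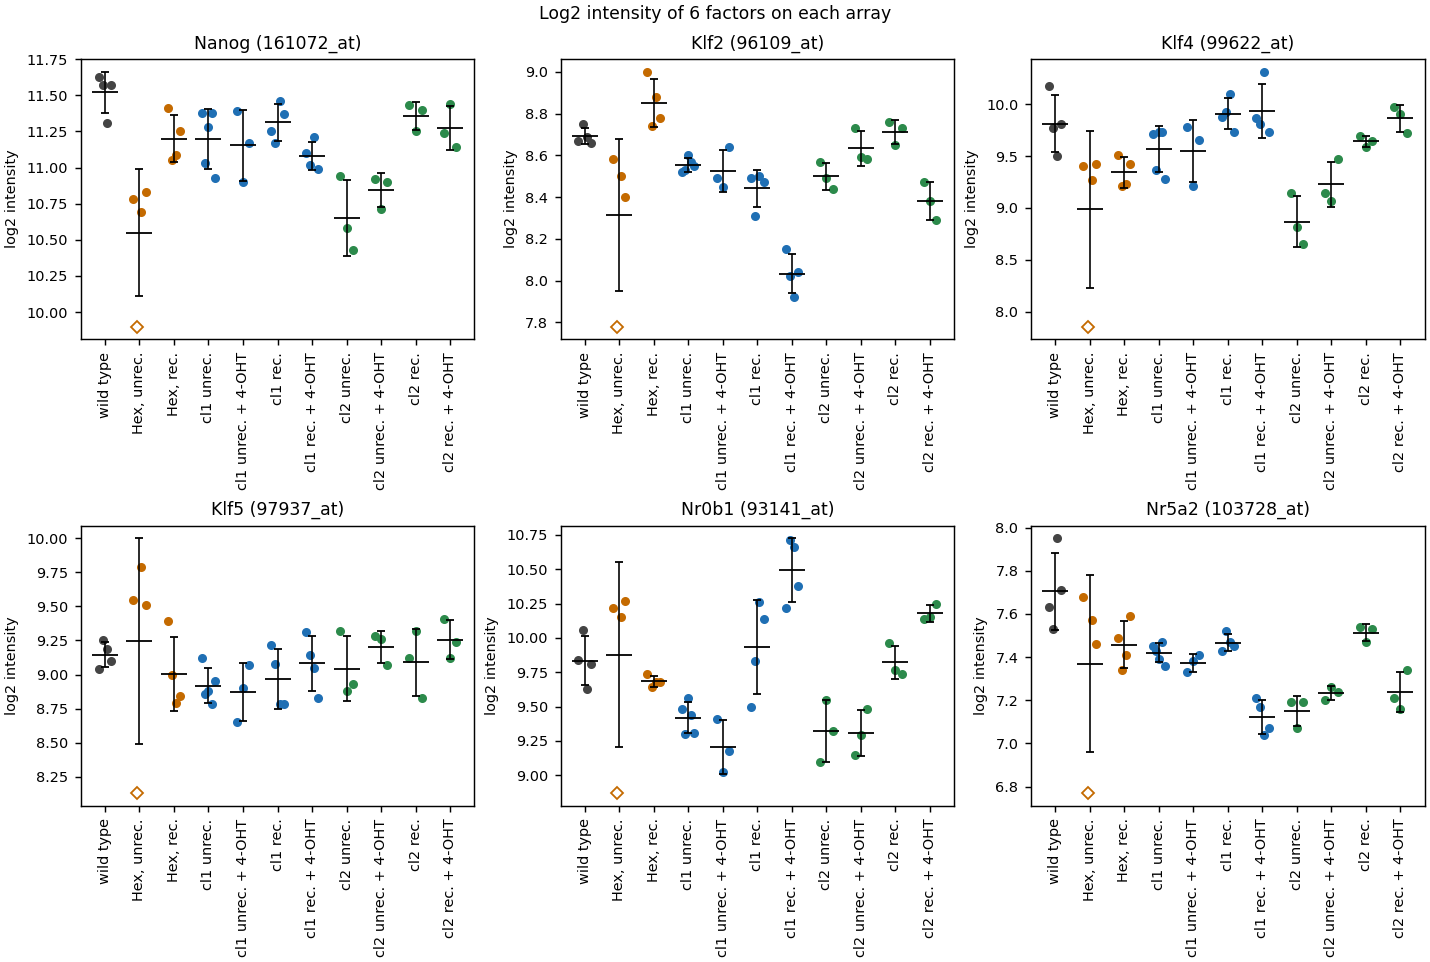
Log2 intensity of 6 of the factors on each array, by group (cl1 and cl2, HexERTVP2 clones 1 and 2; rec. and unrec., recombined and unrecombined). Points are arrays, black bars the group mean ± SD, and the open diamond is array 2 of unrecombined Hex, which is the lowest array of its group in all 6 panels. Klf2 is lowest in recombined clone 1 with 4-OHT (8.03 ± 0.09) and Nr0b1 highest there (10.49 ± 0.23).

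Nanog was highest in wild type (11.52 ± 0.14, SD, n = 4) and lowest in unrecombined Hex (10.55 ± 0.43, n = 4; 10.77 ± 0.07 without array 2, n = 3) and unrecombined clone 2 (10.65 ± 0.26, n = 3). The groups between them ran from 10.84 to 11.36, and of all neighbours in the order only recombined clone 1 with 4-OHT (11.08 ± 0.1) and unrecombined clone 2 with 4-OHT (10.84 ± 0.11) did not overlap. Klf2 ran from 8.85 ± 0.12 in recombined Hex to 8.03 ± 0.09 in recombined clone 1 with 4-OHT, with every pair of neighbours overlapping. Without array 2 that last group, at most 8.15, lay clear of its neighbour, recombined clone 2 with 4-OHT, at least 8.29. Klf4 ran from 9.93 ± 0.26 in recombined clone 1 with 4-OHT to 8.87 ± 0.25 in unrecombined clone 2, again without a gap between neighbours. For Nr0b1 the order was broken between recombined Hex (9.69 ± 0.04) and unrecombined clone 1 (9.42 ± 0.11): the 4 unrecombined HexERTVP2 groups lay together at the low end, from 9.2 to 9.42. Nr5a2 was highest in wild type (7.7 ± 0.18) and lowest in recombined clone 1 with 4-OHT (7.12 ± 0.08). Unrecombined clone 2 with (7.24 ± 0.03) and without 4-OHT (7.15 ± 0.07) did not overlap. That gap was very small, as the lowest array with 4-OHT read 7.2 and the highest without it 7.19. Klf5 had group means from 8.87 to 9.26 with all neighbours overlapping; without array 2, unrecombined Hex (9.62 ± 0.15, n = 3) was highest and clear of the next group.

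**Figure D2:**
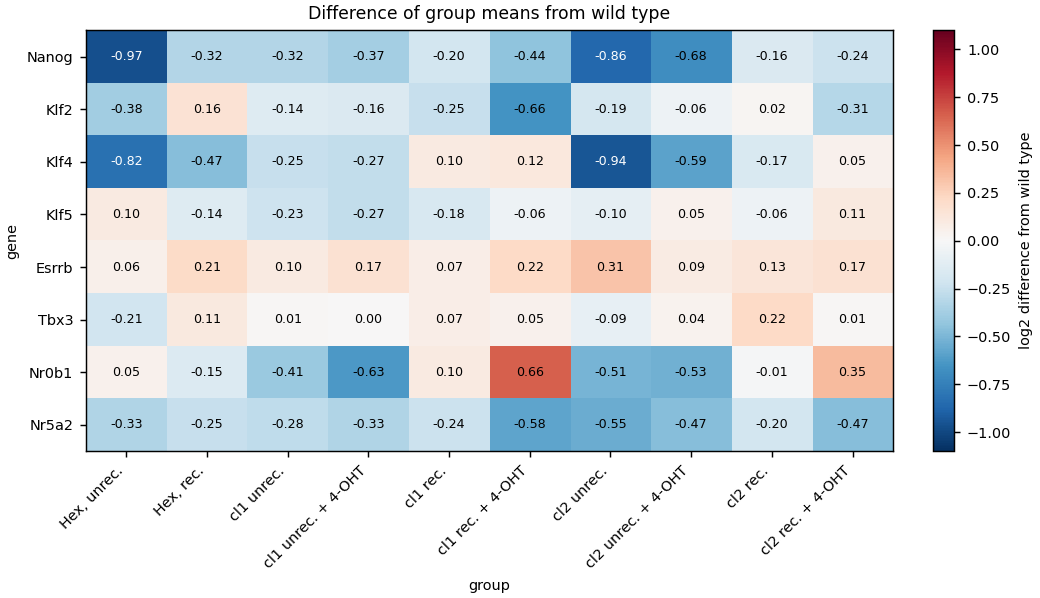
Difference of each group mean from the wild-type mean, on the log2 scale, for the 8 factors (rows) in the other 10 groups (columns, named as in the plot of arrays). The mean of unrecombined Hex includes array 2. The strongest blue cells are Nanog in unrecombined Hex (-0.97), Klf4 in unrecombined clone 2 (-0.94) and Nanog in unrecombined clone 2 (-0.86).

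Recombined Hex was set against unrecombined Hex. The labels do not say what recombination removes or whether both states are of the same clone, so the difference is not assigned to Hex. Nanog, Klf2 and Tbx3 rose: 3 of the 12 probe sets passed the test, against 3.37% of all probe sets, 2.59% higher and 0.781% lower (limma, Benjamini-Hochberg adjustment over all 12422, threshold 0.05). The median of the 12 was 0.17, against 0.01 over all probe sets, but 0.08 against 0.04 without array 2. Without array 2 the 3 genes kept their calls, and Klf5 and Nr0b1 passed in the other direction, 5 of 12 against 6.26% (2.35% higher and 3.91% lower).

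Nanog read 11.41, 11.05, 11.09 and 11.25 in recombined and 10.78, 9.9, 10.69 and 10.83 in unrecombined Hex. The groups did not overlap, which was so in this direction for 4.63% of all probe sets, or 9.43% without array 2. The difference was 0.65 ± 0.15 (SE; 1.57-fold; adjusted p = 0.0083, limma), and 0.43 ± 0.12 (1.35-fold; adjusted p = 0.0272) without array 2. The further Nanog set differed by 0.3 ± 0.16 and did not pass (adjusted p = 0.343, limma).

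Klf2 read 9, 8.74, 8.88 and 8.78 in recombined and 8.58, 7.78, 8.5 and 8.4 in unrecombined Hex, again without overlap. It rose by 0.53 ± 0.1 (1.45-fold; adjusted p = 0.00127, limma), or 0.35 ± 0.07 (1.28-fold; adjusted p = 0.000984) without array 2. Klf4, the factor closest to STAT3, differed by 0.35 ± 0.21 with array 2 (adjusted p = 0.424, limma) and by -0.02 ± 0.15 without it. Klf5, a Klf factor that also marks the early blastocyst, differed in the other direction. Its recombined arrays read 9.39, 9, 8.79 and 8.84 and its unrecombined arrays 9.55, 8.13, 9.79 and 9.51, so that array 2 alone of the unrecombined arrays lay below the recombined ones. The difference was -0.24 ± 0.21 (adjusted p = 0.578, limma), and -0.61 ± 0.14 (1.53-fold lower; adjusted p = 0.00563) once array 2 was left out.

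Among the nuclear receptors, Nr0b1 showed the same dependence. Recombined Hex read 9.74, 9.64, 9.68 and 9.68, and unrecombined Hex 10.22, 8.87, 10.15 and 10.27. The recombined arrays were tight and lay below 3 of the 4 unrecombined ones. The difference was -0.19 ± 0.19 (adjusted p = 0.639, limma) with array 2 and -0.53 ± 0.14 (1.44-fold lower; adjusted p = 0.0132) without it. Nr5a2 differed by 0.09 ± 0.11 (-0.11 ± 0.07 without array 2) and Esrrb by 0.15 ± 0.11 (0.24 ± 0.11), and neither passed with or without array 2. Tbx3 rose by 0.32 ± 0.09 (1.25-fold; adjusted p = 0.0398, limma), from values of 5.08, 5.07, 4.73 and 4.78 to 5.17, 5.26, 5.23 and 5.27. These levels are dim, and the call ended when unrecombined array 3 or 4 (0.26 and 0.27) or any recombined array was left out (0.31 to 0.34).

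The β-actin ratio was lower by 0.34 in recombined Hex, or by 0.09 without array 2; when the ratio entered as a covariate the further Nanog set was called too (0.42, adjusted p = 0.0261, limma) and the other 3 calls stood. Of the fibroblast markers, Acta2 (1.56) and Tagln (1.2), smooth muscle cytoskeletal genes, were the 2 of 12 measured that rose. The summed log2 level of that list was 10.95 to 11.1 in recombined and 10.6 to 11.48 in unrecombined Hex, the latter with array 2 included. The trophoblast marker Tfap2c (0.6) and the primitive endoderm marker Col4a1 (1.1) also rose, 1 of 7 and 1 of 14 measured. Of 11 neuroectoderm markers Nes rose (0.65) and Neurod1 fell (-0.71). Whether other cell types were present, and any part of theirs in the factor levels, was not tested. Fitted on these 8 arrays alone, limma called 0 of the 12 and 8 probe sets in all.

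Both Hex groups were also set against wild type. These comparisons share the Hex arrays with the one above, so the values stand side by side and are no further evidence. In unrecombined Hex against wild type, Nanog, Klf2 and Klf4 fell, 3 of the 12 probe sets against 4.82% of all (0.757% higher and 4.07% lower). In recombined Hex against wild type limma called 0 of the 12, against 0.266% of all, and without array 2 again 0, against 1.37%. With all arrays 3 of the 12 (Nanog, Klf4 and Nr5a2, all lower) had an unadjusted p under 0.05, as had 1024 of all 12422. Wild-type Nanog read 11.63, 11.57, 11.31 and 11.57, above all 4 unrecombined arrays, as 7.26% of all probe sets were. It fell by 0.97 ± 0.15 in unrecombined Hex (1.95-fold; adjusted p = 5.12e-05, limma), or by 0.75 ± 0.12 (adjusted p = 0.000127) without array 2. In recombined Hex the Nanog difference from wild type was -0.32 ± 0.15 (adjusted p = 0.582, limma).

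Wild-type Klf2 read 8.67, 8.75, 8.69 and 8.66. It fell by 0.38 ± 0.1 in unrecombined Hex (1.3-fold; adjusted p = 0.0229, limma), but the difference was -0.2 ± 0.07 (adjusted p = 0.13) without array 2. In recombined Hex it was 0.16 ± 0.1 above wild type, with overlapping arrays. Klf4 was lower in unrecombined Hex too, and in recombined Hex it differed from wild type by -0.47 (adjusted p = 0.57, limma). Wild type read 10.17, 9.77, 9.5 and 9.81, and unrecombined Hex 9.4, 7.86, 9.27 and 9.42. The fall of 0.82 ± 0.21 (1.77-fold; adjusted p = 0.0183, limma) became -0.45 ± 0.15 (adjusted p = 0.112) without array 2, with the groups still apart, as were 9.64% of all probe sets in this direction. The calls of Klf2 and Klf4 ended without array 2. They also ended without single wild-type arrays (1, 2 or 3 for Klf2, with differences of -0.38, -0.36 and -0.38, and 1 for Klf4, with -0.71), while Nanog passed with any of the 40 arrays left out. Without array 2, Nanog was the 1 called of the 12, against 3.63% of all probe sets (1.17% higher and 2.46% lower). Fitted on the arrays of unrecombined Hex and wild type alone, array 2 included, limma called 0 of the 12 and 14 probe sets in all.

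Klf5 and Nr0b1 stood 0.1 ± 0.21 and 0.05 ± 0.19 above wild type in unrecombined Hex with array 2, and 0.47 ± 0.14 (adjusted p = 0.058) and 0.38 ± 0.14 (adjusted p = 0.142, limma) without it, when neither overlapped with wild type, as was so in this direction for 7.02% of all probe sets. Nr5a2 differed from wild type by -0.33 ± 0.11 (adjusted p = 0.0794, limma) in unrecombined Hex, or -0.13 ± 0.07 without array 2, and -0.25 ± 0.11 in recombined Hex. Esrrb and Tbx3 did not pass in either. The β-actin ratio was 0.28 higher in unrecombined Hex than in wild type (0.03 without array 2). As a covariate it left Nanog, Klf2 and Klf4 called and added the further Nanog set (-0.49, adjusted p = 0.00616, limma). With the covariate and without array 2, both Nanog sets and Klf4 (-0.46, adjusted p = 0.0183, limma) were called lower and Klf5 higher (0.47, adjusted p = 0.0294), and Klf2 was not called (adjusted p = 0.0518). Acta2 (-0.81) and Tagln (-0.94), 2 of 12 fibroblast markers, Sparc (-0.81), 1 of 14 primitive endoderm markers, and Tfap2c (-0.75), 1 of 7 trophoblast markers, also fell in unrecombined Hex. Of 11 neuroectoderm markers 3 rose, Ncam1 (0.38), Neurod1 (0.57) and Map2 (0.44), the last not without array 2. The summed log2 level of the fibroblast list was 10.78 to 10.85 in wild type. The part of these in the lower Nanog was not tested.

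Both unrecombined HexERTVP2 clones, the other cells with an insertion, were set against wild type in the same way; whether the clones differ in their distance from it was not tested. In clone 2 without 4-OHT, Nanog, Klf4 and both Nr5a2 probe sets fell, 4 of the 12 against 6.79% of all (3.28% higher and 3.5% lower). The median of the 12 was -0.32, against 0.07 over all probe sets. In clone 1 limma called 0 of the 12, against 0.298% of all. There 4 (Nanog, Nr0b1 and both Nr5a2 sets, all lower) had an unadjusted p under 0.05, as had 529 of all 12422. The 2 comparisons share the wild-type arrays.

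In clone 2 Nanog read 10.94, 10.58 and 10.43, below every wild-type array, as were 13.2% of all probe sets, a fall of 0.86 ± 0.16 (1.82-fold; adjusted p = 0.000836, limma). Its further set differed by -0.46 ± 0.17 (adjusted p = 0.0851). Klf4 read 9.14, 8.82 and 8.65 and fell by 0.94 ± 0.23 (1.92-fold; adjusted p = 0.0134, limma), a call that ended without clone 2 array 3 (-0.83) or wild-type array 1 (-0.82). Nr5a2, a receptor that can stand in for Oct4 in reprogramming, read 7.19, 7.07 and 7.19 against 7.63, 7.53, 7.95 and 7.71 in wild type. It fell by 0.55 ± 0.12 (1.47-fold; adjusted p = 0.00463, limma), and its dimmer set by 0.45 ± 0.12 (adjusted p = 0.0159), the latter not without clone 2 array 2 or wild-type array 2 (-0.4 in both). Klf2 differed by -0.19 ± 0.11 and Nr0b1 by -0.51 ± 0.21, both without overlap with wild type and neither passing (adjusted p = 0.27 and 0.12, limma). Esrrb stood 0.31 ± 0.12 above wild type (adjusted p = 0.0983), the reverse of the other receptors.

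Without array 2 of unrecombined Hex, which is in neither group, these differences were the same and their errors smaller, and 8 of the 12 passed, 7 lower and Esrrb higher, against 25.4% of all probe sets (13.8% higher and 11.6% lower). In clone 1 without it Nr5a2 was the 1 of 12 called (-0.28 ± 0.06, adjusted p = 0.0174, limma; 1.14% of all were called, 0.861% lower). Clone 1 otherwise stood -0.32 ± 0.14 from wild type for Nanog, -0.25 ± 0.2 for Klf4 and -0.41 ± 0.18 for Nr0b1. The β-actin ratio was lower than in wild type by 0.33 in clone 2 and by 0.18 in clone 1. With it as a covariate Nanog, Klf4 and both Nr5a2 sets stayed called in clone 2 and the further Nanog set was added. Some primitive endoderm markers were higher in unrecombined clone 2. Of 14 measured, 3 rose, the basement membrane genes Col4a1 (1.37) and Lama1 (0.57) and the endoderm factor Sox17 (0.43). The summed log2 level of the list was 11.29 to 11.55 against 10.96 to 11.13 in wild type. It was 11.44 to 11.58 in unrecombined clone 2 with 4-OHT. Recombined clone 2 had 11.05 to 11.15 without and 11.01 to 11.18 with 4-OHT. In clone 2 against clone 1 over the 4 states, 0 of the 14 passed with all arrays in limma. In clone 1 the fibroblast marker Acta2 rose (1.1), 1 of 12 measured. In clone 2, of 7 trophoblast markers Tfap2c fell (-0.78) and Ascl2 rose (0.35), and of 10 streak and mesoderm markers Lhx1 rose (0.43). Without array 2 of unrecombined Hex, 6 of the 14 primitive endoderm markers rose and 1 fell, 3 of the 10 streak and mesoderm markers rose and 2 of the 11 neuroectoderm markers did. Whether other cell types were present, and any part of theirs in the lower Nanog, was not tested.

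**Figure D3:**
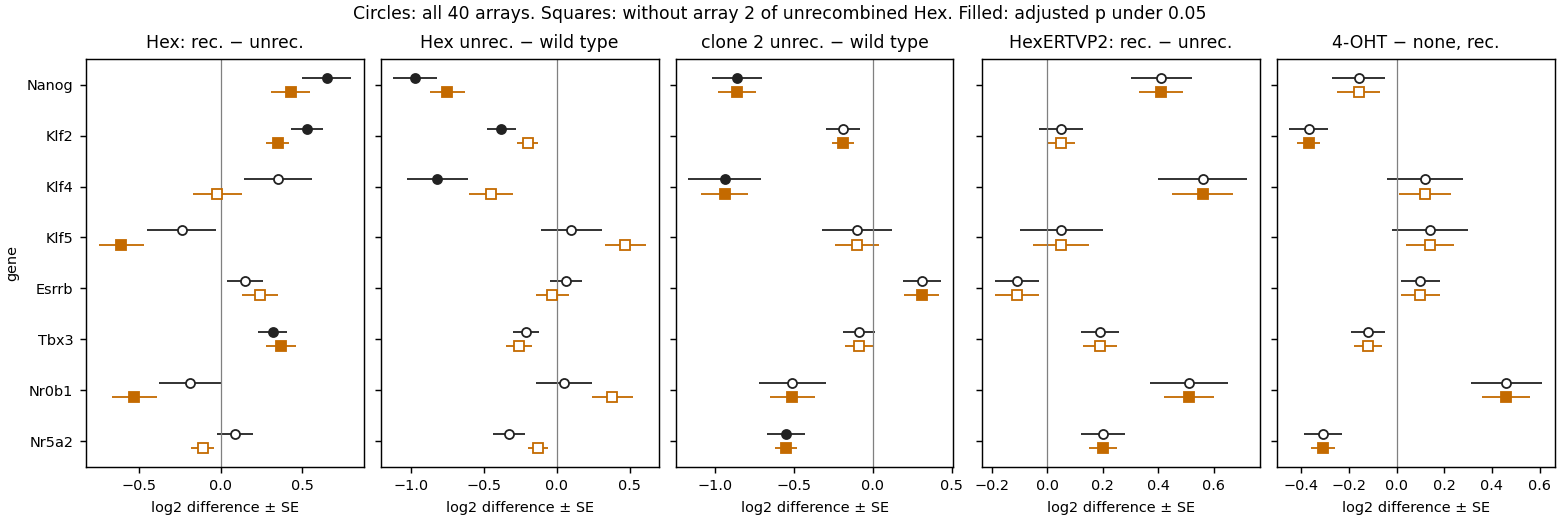
Log2 difference ± SE of the 8 factors in 5 comparisons, from the fit of all 40 arrays (circles) and without array 2 of unrecombined Hex (squares); filled marks have an adjusted p under 0.05. In the 3 comparisons on the right, array 2 belongs to neither side, so circles and squares share their position and differ in their error.

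Recombination was also compared in HexERTVP2 cells without 4-OHT, as the mean of both clones (7 recombined and 8 unrecombined arrays). Nanog, Klf4, Nr0b1 and Nr5a2 stood higher after recombination, but with all arrays limma called 0 of the 12, against 0.467% of all (0.386% higher and 0.0805% lower). Of the 12, 6 (both Nanog sets, Klf4, Nr0b1, Nr5a2 and Tbx3, all higher) had an unadjusted p under 0.05, as had 1330 of all 12422. Without array 2 of unrecombined Hex the same differences passed for those 4 genes, 4 of 12 against 3.38% of all (2.64% higher and 0.741% lower). The median of the 12 was 0.16, against -0.01 over all probe sets. This comparison shares the unrecombined clones with the comparisons with wild type.

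Nanog read 11.43, 11.25 and 11.4 in recombined clone 2, above its unrecombined values given above (11.3% of all probe sets were higher without overlap in clone 2), a difference of 0.71 ± 0.17. In clone 1 it was 0.11 ± 0.14 with overlapping arrays, and the mean over clones was 0.41 ± 0.11 (adjusted p = 0.0933, limma; 0.00454 without array 2). Klf4 was higher in both clones, by 0.34 ± 0.2 in clone 1 and 0.77 ± 0.25 in clone 2. Recombined clone 1 read 9.88, 9.92, 10.1 and 9.73 and unrecombined 9.71, 9.37, 9.73, 9.73 and 9.28. The highest unrecombined and the lowest recombined array of clone 1 both read 9.73 when rounded, so this gap is very small. Recombined clone 2 read 9.69, 9.59 and 9.64. The mean over clones was 0.56 ± 0.16 (1.47-fold; adjusted p = 0.128, limma; 0.00224 without array 2). Klf4 was the representing probe set whose arrays did not overlap in the same direction in both clones, as did 0.411% of all probe sets.

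Nr0b1 was higher in both clones, by 0.51 ± 0.18 in clone 1 and 0.5 ± 0.22 in clone 2, with 1 recombined array of clone 1 inside the unrecombined range. The unrecombined arrays read 9.48, 9.3, 9.56, 9.44 and 9.31 in clone 1 and 9.1, 9.55 and 9.32 in clone 2. The recombined ones read 9.5, 9.83, 10.26 and 10.14 in clone 1 and 9.96, 9.77 and 9.74 in clone 2. The mean over clones was 0.51 ± 0.14 (1.42-fold; adjusted p = 0.115, limma; 0.00154 without array 2). Nr5a2 was 0.36 ± 0.13 higher in clone 2 and 0.05 ± 0.1 in clone 1 (mean 0.2 ± 0.08, adjusted p = 0.341, limma; 0.0203 without array 2). Klf2 (0.05 ± 0.08) and Klf5 (0.05 ± 0.15) did not pass in either fit. The β-actin ratio was 0.44 higher after recombination. With it as a covariate and array 2 left out the same 4 genes were called (Nanog at 0.28 ± 0.06), and with all arrays and the covariate 0 were.

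Recombined HexERTVP2 cells with 4-OHT were set against those without it. Klf2 and Nr5a2 were lower and Nr0b1 higher with 4-OHT, in both clones. With all 40 arrays limma called 0 of the 12, against 0.0322% of all, and 3 had an unadjusted p under 0.05, as had 191 of all 12422. Without array 2 of unrecombined Hex those 3 genes passed, against 0.145% of all (0.0483% higher and 0.0966% lower). This comparison shares the recombined arrays without 4-OHT with the one before.

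Klf2 in clone 1 read 8.49, 8.31, 8.5 and 8.47 without and 8.15, 8.02, 7.92 and 8.04 with 4-OHT. In clone 2 it read 8.76, 8.65 and 8.73 without and 8.47, 8.38 and 8.29 with it. The groups did not overlap in either clone. The differences were -0.41 ± 0.1 and -0.33 ± 0.12, with a mean of -0.37 ± 0.08 (1.29-fold lower; adjusted p = 0.0676, limma; 4.23e-05 with an SE of 0.05 without array 2). Adjusting for the β-actin ratio over all arrays, it passed (adjusted p = 0.0469).

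Nr5a2 read 7.43, 7.52, 7.47 and 7.45 without and 7.21, 7.17, 7.04 and 7.07 with 4-OHT in clone 1. In clone 2 the values were 7.54, 7.47 and 7.53 without and 7.21, 7.16 and 7.34 with it. These groups did not overlap either. The mean difference was -0.31 ± 0.08 (1.24-fold lower; adjusted p = 0.594, limma; 0.00236 without array 2), while the dimmer Nr5a2 set differed by -0.12 ± 0.08. Klf2 and Nr5a2 were 2 of the 12 probe sets that were lower in both clones without overlap, as were 0.177% of all probe sets.

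Nr0b1 rose from the recombined values given above to 10.22, 10.71, 10.66 and 10.38 in clone 1 and 10.14, 10.15 and 10.25 in clone 2 in the fit without array 2 (adjusted p = 0.0322, limma). Clone 2 was without overlap, while 1 array of clone 1 with 4-OHT lay below the highest without it. The differences were 0.56 ± 0.19 and 0.36 ± 0.22, with a mean of 0.46 ± 0.15 (1.37-fold; adjusted p = 1 with all arrays). Nanog (-0.16 ± 0.11), Klf4 (0.12 ± 0.16), Klf5 (0.14 ± 0.16), Esrrb (0.1 ± 0.08) and Tbx3 (-0.12 ± 0.07) did not pass in either fit. The β-actin ratio differed by -0.62 in clone 1 and by 0.32 in clone 2. With the ratio as a covariate and array 2 left out, Klf2, Nr0b1 and Nr5a2 were called, as without the covariate, and 35 of all 12422 probe sets were. Beyond these fits the part of the ratio in the 3 differences was not tested. The trophoblast marker Tfap2c fell with 4-OHT in the fit without array 2 (-0.36), 1 of 7 measured, and was -0.46 in the difference from unrecombined cells described next; its part was not tested.

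**Figure D4:**
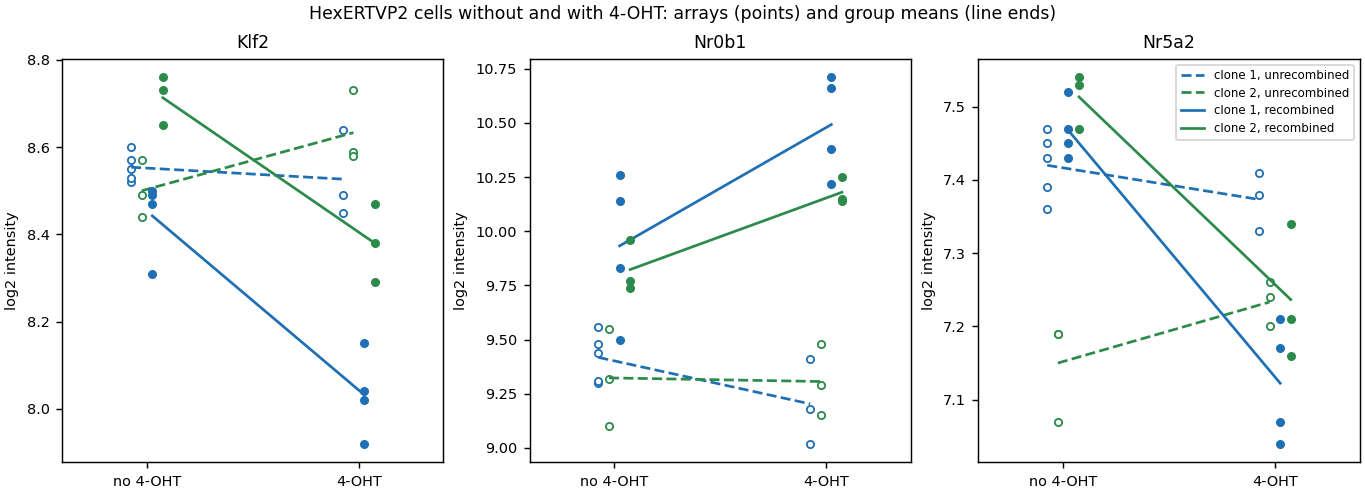
Log2 intensity of Klf2, Nr0b1 and Nr5a2 in HexERTVP2 cells without and with 4-OHT; points are arrays (open, unrecombined; filled, recombined), lines join group means. Solid lines of both clones fall for Klf2 and Nr5a2 and climb for Nr0b1, and the dashed lines of unrecombined cells are flatter.

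Unrecombined cells were compared with and without 4-OHT too (6 arrays with and 8 without). There limma called 0 of the 12 and 0% of all probe sets. Of the 12, 1, the dim Klf4 set (-0.12 ± 0.05), had an unadjusted p under 0.05, as had 169 of all 12422. Klf2 differed by 0.05 ± 0.08, Nr0b1 by -0.12 ± 0.15 and Nr5a2 by 0.02 ± 0.09. Klf2 read 8.49, 8.45 and 8.64 with 4-OHT in clone 1 and 8.73, 8.59 and 8.58 in clone 2, the latter all above the arrays without it (8.57, 8.49 and 8.44), as were 6.66% of all probe sets. The β-actin ratio was 0.21 higher with 4-OHT.

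An interaction term tested whether 4-OHT acted differently in recombined and in unrecombined cells. With all arrays limma called 0 of the 12, against 0.0161% of all, and 3 had an unadjusted p under 0.05, as had 322 of all 12422. The difference was -0.42 ± 0.11 for Klf2 (adjusted p = 0.841, limma), 0.58 ± 0.21 for Nr0b1 and -0.33 ± 0.12 for Nr5a2 (adjusted p = 1 for both). Without array 2, Klf2 passed (adjusted p = 0.00295), 1 of 12 against 0.0644% of all (0.00805% higher and 0.0564% lower), and Nr0b1 (0.148) and Nr5a2 (0.105) did not. The β-actin ratio of the same contrast was -0.36. Between the clones, the response of recombined cells was not shown to differ for any of the 12. Here limma called 0 of 12 and 0% of all, and 0 of 12 had an unadjusted p under 0.05, against 92 of all 12422. The β-actin ratio differed by 0.95 between these responses. With it as a covariate, with or without array 2, limma again called 0 of the 12 and 0 of all. Beyond these fits its part was not tested.

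Over the 4 states, clone 2 was -0.34 ± 0.12 from clone 1 in Klf4, 0.19 ± 0.11 in Klf5 and 0.17 ± 0.05 in Klf2. With all arrays limma called 0 of the 12, against 1.22% of all (0.459% higher and 0.757% lower). Of the 12, 2, Klf2 and Klf4, had an unadjusted p under 0.05, as had 909 of all 12422. Without array 2 of unrecombined Hex, Klf2 was called higher (adjusted p = 0.00248) and Klf4 lower (0.00688) in clone 2, 2 of 12 against 3.25% of all (1.31% higher and 1.94% lower). The β-actin ratio differed by 0. Acta2 (-0.95) and Tagln (-0.46), 2 of 12 fibroblast markers, were lower in clone 2.

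Across the 11 group means, with array 2 left out, Nanog had a Pearson r of 0.92 with its further probe set and 0.78 with Klf4. Its r was 0.62 with Tbx3, 0.52 and 0.68 with the brighter and dimmer Nr5a2 sets, and 0.2 with both Klf2 and Nr0b1. With Esrrb and Klf5 the r was negative (-0.27 and -0.37). Klf2 and Nr0b1 ran in opposite directions (-0.56), while r was 0.84 between the Nr5a2 sets and 0.37 between the Nr0b1 sets. These are descriptions over 11 points that share the array platform and, in part, the same clone; the β-actin ratio itself had an r of 0.46 with Nanog, 0.55 with Klf4 and 0.04 with Klf2. Among probe sets with 1 symbol and a mean log2 of 6 or more, the group means most like those of Nanog were Sap30l (r = 0.956), Dhx40 (0.943) and Tmem50b (0.941) without array 2, and Atp1b3 (0.966), Acly (0.957) and Dazap2 (0.95) with it. Without array 2, Klf2 was most like Egr1 (0.842), an immediate early gene, and the 2 probe sets of Lypla1 (0.799 and 0.795). With it, Zdhhc9 came first for Klf2 (0.853) and Egr1 next (0.821). Klf4 was most like the Groucho co-repressor Tle1 (0.954) and Fdx1 (0.951) without array 2. Nr0b1 was most like Wdtc1 (0.843) and Nr5a2 most like Cisd1 (0.938) without array 2. With it, Mapkapk5 came first for Nr5a2 (0.931). Klf5 was most like Hcfc1 (0.942) without array 2 and Tug1 (0.844) with it. Esrrb followed Tbl3 (0.972) and Tbx3 followed Actc1 (0.952) without array 2, when the group means of Esrrb and Tbx3 spanned 0.34 and 0.48. With it, Cryge came first for Esrrb (0.971).

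The wider network was described by lists of other naive genes, core factors, LIF and STAT3 signalling, formative and primed genes, and Wnt targets with β-catenin partners. Of the other naive genes 15 of 20 were measured. In recombined against unrecombined Hex, 1 rose, Dppa3 (1.78 ± 0.18), a maternal factor and naive marker, and 1 fell, Gbx2 (-1.14 ± 0.21), a homeobox gene downstream of STAT3; the list's median was 0.01, as over all probe sets, but -0.22 against 0.04 without array 2. In unrecombined Hex against wild type 3 fell, Dppa3 (-2.17 ± 0.18), Zfp42 (-0.75 ± 0.21, the marker Rex1) and Tfcp2l1 (-0.64 ± 0.16), and Gbx2 rose (0.87 ± 0.21), with a median of -0.06 against 0.03 that turned to 0.16 against 0.02 without array 2. In clone 2 against wild type 2 fell, Dppa3 (-1.5 ± 0.2) and Tfcp2l1 (-0.91 ± 0.17), and in clone 1 Dppa3 (-0.84 ± 0.17). In the other 7 comparisons 0 of 15 passed with all arrays in limma, with 0 to 6 at an unadjusted p under 0.05, against 92 to 1330 of all 12422. Without array 2, Zfp42 was no longer called in unrecombined Hex against wild type, and Tfcp2l1 (-0.33), Dppa5a (-0.38) and Zfx (-0.39) fell in recombined against unrecombined Hex beside Gbx2. In that fit 4 of 15 rose on recombination of HexERTVP2 (Dppa3, Tfcp2l1, Zfp42 and Fbxo15), and Fbxo15 (-0.39) fell with 4-OHT in recombined cells. Tfcp2l1 was lower in recombined Hex than in wild type (-0.64). In clone 2 against clone 1, Dppa3 (-0.3), Tfcp2l1 (-0.25) and Gbx2 (-0.34) were lower and Dppa4 (0.2) higher. In clone 1 against wild type 4 fell, Dppa3, Tfcp2l1 and Dppa4 among them, and Gbx2 rose. In clone 2 Fbxo15 (-0.69) also fell and Pecam1 (0.26) rose, where 25.4% of all probe sets were called.

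Of the core factors 10 were measured of 12, and of these 0 passed in any of the 11 comparisons with all arrays in limma. In each comparison 0 to 3 had an unadjusted p under 0.05, against 92 to 3181 of all 12422. The medians ran from -0.18 to 0.03. Without array 2 the medians ran from -0.38 (recombined against unrecombined Hex) to 0.21 (unrecombined Hex against wild type). In the former 6 of 10 had an unadjusted p under 0.05, against 2360 of all 12422. Fgf4 passed in 6 comparisons and Mycn in 3, with Fgf4 lower by 0.39 ± 0.1 and Mycn by 0.57 ± 0.14 in recombined against unrecombined Hex. Pou5f1 and Sox2 passed in none. Of the LIF and STAT3 list 11 of 12 were measured. With all arrays the kinase Pim1 rose in clone 1 against wild type (0.42 ± 0.09) and the receptor subunit Il6st fell in clone 2 (-0.89 ± 0.18). In the other 9 comparisons 0 passed (0 to 3 at an unadjusted p under 0.05, against 92 to 3181 of all 12422). Without array 2, Il6st was also lower in recombined Hex against wild type (-0.54) and in clone 2 against clone 1 (-0.29), where Pim1 was lower too (-0.18). In that fit Lifr, the LIF receptor, rose on recombination of HexERTVP2 (0.54), and in clone 2 against wild type Lifr (-0.63) and Socs3 (-0.74) fell and Junb rose (0.27). Of 12 formative and primed genes measured of 18, 0 passed in recombined against unrecombined Hex in limma. There 4 had an unadjusted p under 0.05, against 1981 of all 12422. Without array 2 the DNA methyltransferase Dnmt3a fell (-0.51 ± 0.13) and the keratin Krt18 rose (0.8 ± 0.21) in the same comparison. In unrecombined Hex against wild type the Wnt effector Lef1 rose (0.29 ± 0.08) and N-cadherin, Cdh2, fell (-1.03 ± 0.27), both calls that ended without array 2, when Dnmt3a rose (0.68 ± 0.13). Cdh2 also fell in clone 2 (-1.13 ± 0.29), and Krt18 was lower in clone 2 than in clone 1 (-0.68 ± 0.11). Of 7 Wnt genes measured of 11, 0 passed with all arrays (0 to 2 at an unadjusted p under 0.05, against 92 to 3181 of all 12422). Without array 2, Ctnnb1 (-0.32) fell and Cdx1 (0.32) rose in clone 2 against wild type. All changes named here passed an adjusted p of 0.05 over all probe sets in limma.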

How the data were processed

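Gene expression was measured on 44 single-channel Affymetrix MG-U74Av2 arrays of total RNA, and 40 arrays with consistent titles fell into 11 groups. Per the submitters' processing notes the values were made with RMA, which corrects background, normalises by quantiles and summarises probes. The authors deposited linear intensity values (array medians 106 to 112), here converted to log2. Which arrays were normalised together is not given in the sources used here, nor is a genome build. Arrays carry no depth, and their number limits the precision.

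After removal of 66 control sets, 12422 probe sets were fitted with lmFit and eBayes (limma 3.58.1 under R 4.3.3), 1 coefficient per group and 29 residual degrees of freedom. Each of 11 contrasts was adjusted by Benjamini-Hochberg over all 12422 probe sets (threshold 0.05, two-sided). Errors of differences are standard errors and those of means SDs. By-clone differences carry no adjusted p. A gene with several probe sets is represented by the one with the highest mean; genes of like pattern are the 3 with the highest Pearson r of group means. From each list up to 4 genes that passed were named per comparison.

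The members, the gene lists and the separate treatment of array 2 of unrecombined Hex were chosen with earlier results of these data known. The platform annotation gave the symbols (10833 probe sets with 1 symbol, 396 with several, 1193 with none), and promoters from RefSeq. Alternatives were normalisation, filter, moderation, array weights, arrays fitted, a replicate block, the β-actin ratio, the threshold and left-out arrays. The procedure was tested on simulated data. Figures used matplotlib 3.10.9 in Python 3.11.15.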

Additional observations from a re-analysis of the deposited data

Results flagged for a closer look

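Dixon's gap test was run on 72 sets of values, each a factor's probe set in a group of 4 or 5 arrays. Chance alone trips this test about 1 time in 20. In 6 sets an array lay far from the rest. Of these, 4 were array 2 of unrecombined Hex: Nanog at 9.9 (next lowest 10.69), Klf4 at 7.86 (9.27), Klf5 at 8.13 (9.51) and Nr0b1 at 8.87 (10.15). It is the array that stood apart over all probe sets. Klf2 in recombined clone 1 without 4-OHT had a low array 2, at 8.31 against 8.47 for the nearest; it still lay above the 4 arrays with 4-OHT. Tbx3 in wild type had a high array 3, at 5.24 against 5.1.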

How the results depend on the processing

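Counts of the 12 probe sets called are given with all 40 arrays and then under the settings that moved them. For recombined against unrecombined Hex (3), array weights gave 5, the compared arrays alone 0, and the β-actin covariate without array 2 of unrecombined Hex 6. For recombined Hex against wild type (0) the last setting gave 3. For unrecombined Hex against wild type (3), array weights gave 7, the compared arrays alone 0 and a threshold of 0.01 1. For 4-OHT in recombined cells (0), array weights gave 3, the compared arrays alone 1, the β-actin covariate 1 and the covariate without array 2 3; for its difference from unrecombined cells (0) they gave 2, 2 and, for the covariate without array 2, 1. For recombination of HexERTVP2 (0), a further quantile normalisation gave 1, array weights 4, the compared arrays alone 2 and the covariate without array 2 4. For clone 2 against clone 1 (0) array weights gave 4, the compared arrays alone 2 and the covariate without array 2 3. For clone 1 against wild type (0) array weights and the covariate without array 2 each gave 2, and for clone 2 against wild type (4) the latter gave 8 and the threshold of 0.01 2. The cause of these shifts was not tested. The fits of the compared arrays alone also used fewer arrays.

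Leaving out each of the 40 arrays in turn gave these ranges, with the range over all probe sets in square brackets. They were 2 to 5 [233 to 778] for the Hex comparison. Against wild type they were 0 to 0 [26 to 170] for recombined and 1 to 4 [378 to 1595] for unrecombined Hex. For 4-OHT they were 0 to 3 [3 to 18] in recombined cells, 0 to 0 [0 to 0] in unrecombined cells and 0 to 1 [1 to 8] for their difference. Recombination of HexERTVP2 gave 0 to 4 [25 to 420], the clones 0 to 2 [125 to 404] and their 4-OHT responses 0 to 0 [0 to 0]. Clones 1 and 2 against wild type gave 0 to 1 [23 to 142] and 3 to 8 [215 to 3152]. The Nanog calls in the Hex comparison, unrecombined Hex and clone 2, the Klf2 call in the Hex comparison and the brighter Nr5a2 set in clone 2 stood in all 40. In unrecombined Hex against wild type, the uncalled differences of Klf5 (0.1) and Nr0b1 (0.05) changed sign between left-out arrays. They were 0.47 and 0.38 without unrecombined Hex array 2. Klf5 went to 0 and -0.08 without unrecombined Hex arrays 1 and 3, and Nr0b1 to -0.07, -0.05 and -0.08 without arrays 1, 3 and 4 and -0.02 without wild-type array 3. Of 132 results (12 probe sets in 11 comparisons), 92 were called under no setting, and 31 of these changed sign under some setting.

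Arrays of different groups that share a replicate number deviated together only weakly on average (mean r = 0.11 over 163 pairs). Of these pairs, 85 had an r over 0.1. The mean r was -0.03 for different numbers. Single pairs ran from -0.7 to 0.85 for the same number and from -0.83 to 0.82 for different numbers. A low mean cannot tell whether some arrays with the same number were handled together, which was not tested. With the replicate block the counts were 3, 0 and 3 for the Hex comparison and recombined and unrecombined Hex against wild type, 4 for clone 2 against wild type and 0 for the others, the same as without it.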

Other observations

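The 4 arrays with contradictory titles gave these values. An array worded as unrecombined clone 2 with 4-OHT but coded as clone 1 read 11.56 for Nanog, 8.56 for Klf2, 9.66 for Klf4, 9.31 for Nr0b1 and 7.46 for Nr5a2. An array worded as unrecombined clone 2 without 4-OHT but coded with it read 10.74 for Nanog, 8.35 for Klf2, 8.95 for Klf4, 9.19 for Nr0b1 and 7.3 for Nr5a2. Of the arrays worded as recombined clone 1 with 4-OHT, the array coded as clone 2 without 4-OHT read 11.54 for Nanog, 8.88 for Klf2, 9.72 for Klf4, 9.84 for Nr0b1 and 7.15 for Nr5a2. The array coded as clone 2 with 4-OHT read 11.38 for Nanog, 8.44 for Klf2, 9.78 for Klf4, 10.41 for Nr0b1 and 7.28 for Nr5a2. They were assigned to no group.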
